A study of Mus musculus with 90 samples.

Results

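The genes *Cdkn1a*, *Gadd45a*, *Gadd45b*, *Gadd45g*, *Btg1*, *Btg2*, *Myc*, *Ccnd1*, *Mdm2* and *Trp53* of mouse liver are described here, 10 genes of the 27654 in the tables. All 10 were found by symbol. They were selected on measured levels that cover each time point, both diets, both genotypes and the corticosterone experiment, with no threshold stated. All values of the 10 genes are therefore a description with no test, also where tests at other time points than ZT12 (12 h after lights on) and with corticosterone had been planned. Counts of these genes past a threshold stand beside the share over all genes, and nothing is read from them. Groups called separate are those with no overlap between mice. The share of all genes that separate the same groups is not given, so separation is a description too. *Cdkn1a* encodes p21, which binds cyclin-dependent kinases and halts the cell cycle. The transcription factor p53, encoded by *Trp53*, is a known activator of *Cdkn1a* and of *Mdm2*, whose product marks p53 for degradation. GADD45 proteins are small stress-induced proteins that bind PCNA, CDK1 and the kinase MAP3K4, and BTG1 and BTG2 are antiproliferative proteins that recruit the CCR4-NOT deadenylase. c-MYC and cyclin D1, encoded by *Ccnd1*, drive cells from G1 into S phase. Adult hepatocytes are mostly quiescent, and in liver these genes are also known to respond to feeding, hormones and injury as well as to DNA damage.

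The livers came from male C57BL/6J mice that were 12 weeks old at the start, 1 mouse per library and 90 libraries in all. In the time series, GR fl/fl mice (WT) and GR fl/fl mice with Alb-Cre (GR LKO) were sampled every 4 h at 6 time points on caloric restriction or control diet. Caloric restriction ended at 40% fewer calories with food given at ZT12, and per the study's methods the control diet was free feeding that became night-restricted feeding for the last week. Separate experiments at ZT12 compared WT mice on caloric restriction with WT mice on the control diet, and WT mice given corticosterone (5 mg/kg at ZT11 on each of 7 days, during night-restricted feeding) with their injected controls. For the corticosterone experiment the study's methods name C57BL/6J mice and no floxed allele, so WT there need not mean GR fl/fl. For the controls of the diet experiment, titles name ad libitum and treatment labels night-restricted feeding. The study calls the Alb-Cre deletion hepatocyte-specific, and these whole-liver libraries do not show which other cells keep the receptor in GR LKO mice. Groups held 3 mice, or 4 on the control diet at ZT8 and ZT12 in each genotype and at ZT16 and ZT20 in WT. Median depth was 17386700 counts per library in the time series on caloric restriction, 13427104 on control diet, 37407547 in the diet experiment and 14431388 in the corticosterone experiment. Levels are CPM, counts scaled to library size, after TMM scaling, and they serve to compare samples for a gene, not genes with each other, since no gene lengths were used. A gene was called when its edgeR p-value, adjusted over all genes tested, was under 0.05. Diet and library table coincide in the time series, so the diets were compared only in the diet experiment and through the interaction of genotype and diet.

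The transcript of the deleted gene, *Nr3c1*, was lower in every GR LKO liver than in every WT liver at each of the 12 combinations of diet and time point. The log2 fold change lay between -1.70 and -2.06, and edgeR called *Nr3c1* each time, with the highest adjusted p at 0.00309. It was called neither by diet (log2 fold change -0.08, edgeR adjusted p = 0.317) nor with corticosterone (-0.06, edgeR adjusted p = 0.808). The libraries carried liver markers, with the hepatocyte list of 5 genes led by *Alb*. One library stood apart from its group, GR LKO replicate 1 at ZT20 on control diet. Its correlations with replicates 2 and 3 across genes (r = 0.978 and 0.979) were the lowest of the 102 pairs of libraries within groups, against 0.987 between those 2, and it was the highest of the 3 in all of the 10 genes but *Mdm2*. In whole liver, fewer cells of a type and less RNA per cell cannot be told apart.

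At ZT12 the widest contrast among the 10 genes was that of *Cdkn1a*. In the diet experiment its level was 65.9, 50.9 and 74.2 CPM under restriction against 1.40, 2.41 and 1.66 CPM on control diet, a log2 fold change of 5.12 (SE 0.23). In the time series on caloric restriction it was 38.4, 20.01 and 27.6 CPM in WT against 1.84, 2.09 and 2.26 CPM in GR LKO (log2 fold change -3.80, SE 0.27). All 3 restricted WT livers were far above all 3 restricted GR LKO livers, while on control diet both genotypes were low, at 1.32, 1.14, 1.60 and 0.638 CPM in WT against 1.37, 0.670, 1.11 and 1.34 CPM in GR LKO.

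*Gadd45b* was likewise higher in restricted WT livers in both contrasts. Its level in the diet experiment was 2.21, 4.26 and 10.2 CPM under restriction against 0.351, 0.340 and 0.343 CPM on control diet (log2 fold change 4.00, SE 0.61), or 3.23 on that scale without restricted replicate 3, the highest. Under restriction in the time series it was 3.93, 4.53 and 3.15 CPM in WT against 0.979, 1.01 and 1.47 CPM in GR LKO (log2 fold change -1.74, SE 0.28), with no overlap in either contrast. For *Gadd45g* the genotypes were apart under restriction, at 9.41, 41.6 and 26.9 CPM in WT against 3.68, 0.902 and 3.30 CPM in GR LKO (log2 fold change -3.31, SE 0.63). On control diet 3 of 4 WT livers were high, at 6.70, 106, 86.4 and 82.6 CPM, against 1.96, 5.12, 13.3 and 13.5 CPM in GR LKO (log2 fold change -3.07, SE 0.79). By diet *Gadd45g* overlapped, with 48.7, 76.7 and 106 CPM under restriction against 35.1, 60.9 and 7.72 CPM on control diet.

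*Gadd45a* and *Ccnd1* ran the other way, lower in restricted WT livers than in either comparison group. *Gadd45a* was 1.76, 1.32 and 1.56 CPM under restriction against 3.78, 4.14 and 4.64 CPM on control diet (log2 fold change -1.44, SE 0.17), and among restricted mice 1.47, 0.767 and 1.2 CPM in WT against 2.76, 3.16 and 2.81 CPM in GR LKO. *Ccnd1* was 9.11, 9.35 and 10.1 CPM under restriction against 21.3, 43.4 and 40.8 CPM on control diet (log2 fold change -1.89, SE 0.26), and among restricted mice 6.32, 7.88 and 10.8 CPM in WT against 21.1, 29.5 and 23.5 CPM in GR LKO. For both genes each pair of groups was separate. *Btg1*, by contrast, separated the diets and not the genotypes, with 96.2, 92.6 and 91.7 CPM under restriction, 26.3, 26.0 and 25.7 CPM on control diet, and group means of 80.5 CPM in WT against 81.1 CPM in GR LKO under restriction. The tight replicates of *Btg1* gave a log2 fold change by diet of 1.85 with an SE of 0.06. *Btg2* was 16.8, 16.5 and 21.2 CPM under restriction against 11.2, 9.90 and 9.33 CPM on control diet, with no overlap. *Mdm2* and *Trp53*, the p53 regulator and p53 itself, had diet contrasts of 0.30 and -0.34 on the log2 scale. By genotype under restriction *Mdm2* was 39.9, 34.0 and 33.0 CPM in WT against 24.4, 24.5 and 27.1 CPM in GR LKO, with no overlap (log2 fold change -0.50, SE 0.10). The interaction of genotype and diet at ZT12, as a log2 value with no test, was -3.72 for *Cdkn1a* (SE 0.43) and 1.89 for *Ccnd1* (SE 0.51). *Gadd45b* was below the count filter on control diet at ZT12 and entered that fit through the restricted groups, so no interaction is given for it. The interaction was near 0 against its SE for *Gadd45g* (-0.22, SE 1.2), *Btg2* (-0.09, SE 0.45), *Gadd45a* (0.48, SE 0.55) and *Myc* (0.63, SE 1.2), and for *Btg1*, *Mdm2* and *Trp53* it was 0.27, -0.33 and -0.20 (SE 0.19, 0.16 and 0.18).

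Cell type markers differed with genotype in the same restricted ZT12 livers. The summed level of the hepatocyte list was 154801, 153952 and 159288 CPM in WT against 115283, 123602 and 107199 CPM in GR LKO, with 4 of 5 genes called lower by edgeR (*Alb*, *Apoa1*, *Hnf4a* and *Tat*). The Kupffer and myeloid list, whose most abundant gene was *Clec4f*, summed to 29.3, 48.3 and 35.7 CPM in WT against 78.3, 66.3 and 88.3 CPM in GR LKO, with 2 of 6 genes called higher (*Clec4f* and *Csf1r*). Hepatocyte sums were thus lower and Kupffer sums higher in every GR LKO liver. Other lists were separate too. Endothelial sums, led by *Clec4g*, were higher in GR LKO with no gene called, at 141, 132 and 156 CPM in WT against 178, 164 and 185 CPM. Lymphocyte sums, led by *Cd3e*, were 0.281, 0.0697 and 0.225 CPM in WT against 0.345, 0.507 and 0.550 CPM. Cholangiocyte sums, led by *Sox9*, were lower in GR LKO, at 6.53, 3.49 and 4.27 CPM in WT against 2.59, 3.44 and 2.38 CPM, with *Sox9* called lower of 2 genes tested. The erythrocyte gene *Alas2* was called higher while the sums of its list overlapped, and the part of all these markers in the ZT12 values of the 10 genes was not tested. On control diet at ZT12, 3 of 5 hepatocyte genes (*Apoa1*, *Hnf4a* and *Tat*) were also called lower in GR LKO. In the diet experiment edgeR called 3 of 5 hepatocyte genes higher on caloric restriction, with sums of 146558, 149905 and 154974 CPM against 77067, 77702 and 81141 CPM. It also called higher 3 of 4 endothelial genes (sums 152, 159 and 183 against 93.7, 121 and 127 CPM), 3 of 5 stellate genes, led by *Dcn* (294, 268 and 298 against 209, 210.1 and 176 CPM), and 2 of 4 cholangiocyte genes, led by *Sox9* (8.14, 7.71 and 10.1 against 4.03, 4.03 and 4.77 CPM). All of these sums were higher in every restricted liver. Lower in every restricted liver were the lymphocyte sums (0.397, 0.545 and 0.628 against 1.85, 2.62 and 1.45 CPM), with *Cd79a*, the most abundant in controls, called lower of 2 genes tested, and the neutrophil sums (0.17, 0.234 and 0.273 against 0.326, 0.655 and 0.633 CPM). *Alas2* was called lower of 3 erythrocyte genes, whose sums overlapped. The part of these markers in the diet contrasts was likewise not tested. The neutrophil list summed to at most 3.82 CPM in any library, and the defining markers *Ly6g* and *Epcam* were at 0 in most groups.

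Across the day *Cdkn1a* swung widely in both genotypes and on both diets. In WT on caloric restriction its level was 2.48, 6.72 and 2.42 CPM at ZT0, 1.22, 1.31 and 1.06 CPM at ZT4, 0.790, 1.2 and 0.921 CPM at ZT8, 28.3, 28.9 and 20.4 CPM at ZT16 and 17.5, 7.70 and 14.1 CPM at ZT20. In GR LKO on the same diet it was 7.02, 4.00 and 4.41 CPM at ZT0, 2.24, 2.15 and 0.912 CPM at ZT4, 0.907, 0.950 and 1.16 CPM at ZT8, 11.9, 12.9 and 4.99 CPM at ZT16 and 18.0, 6.66 and 10.2 CPM at ZT20. WT livers were thus already high at ZT12 and stayed high at ZT16, whereas GR LKO livers were low at ZT12, intermediate at ZT16 and level with WT at ZT20. In the order of the 12 group means under restriction, WT at ZT12 (28.7 CPM) and WT at ZT16 (25.8 CPM) stood first and overlapped, and all livers of both were above all others. The next groups, WT and GR LKO at ZT20, GR LKO at ZT16, and GR LKO and WT at ZT0, overlapped from neighbour to neighbour. The remaining groups, from GR LKO at ZT12 (2.06 CPM) down to WT at ZT8 (0.970 CPM), again overlapped their neighbours and lay below all the groups named before.

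On control diet the highest groups were those at ZT20 and ZT0. *Cdkn1a* in WT was 9.86, 10.8 and 16.7 CPM at ZT0, 3.64, 2.78 and 3.68 CPM at ZT4, 1.05, 1.14, 0.812 and 1.33 CPM at ZT8, 5.44, 5.02, 2.63 and 4.12 CPM at ZT16 and 24.8, 10.1, 12.3 and 24.1 CPM at ZT20. In GR LKO it was 11.9, 22.7 and 10.6 CPM at ZT0, 5.34, 3.30 and 4.46 CPM at ZT4, 1.27, 0.75, 1.97 and 0.704 CPM at ZT8, 3.13, 1.60 and 1.42 CPM at ZT16 and 27.5, 9.58 and 11.0 CPM at ZT20. Both genotypes were highest at ZT20 and ZT0, where 4 groups overlapped and lay above every other group, and both were near 1 CPM at ZT8 and ZT12. The ratio of the highest to the lowest group mean was 29.6 in WT and 11.6 in GR LKO under restriction, and 16.5 and 14.2 on control diet.

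**Figure D1:**
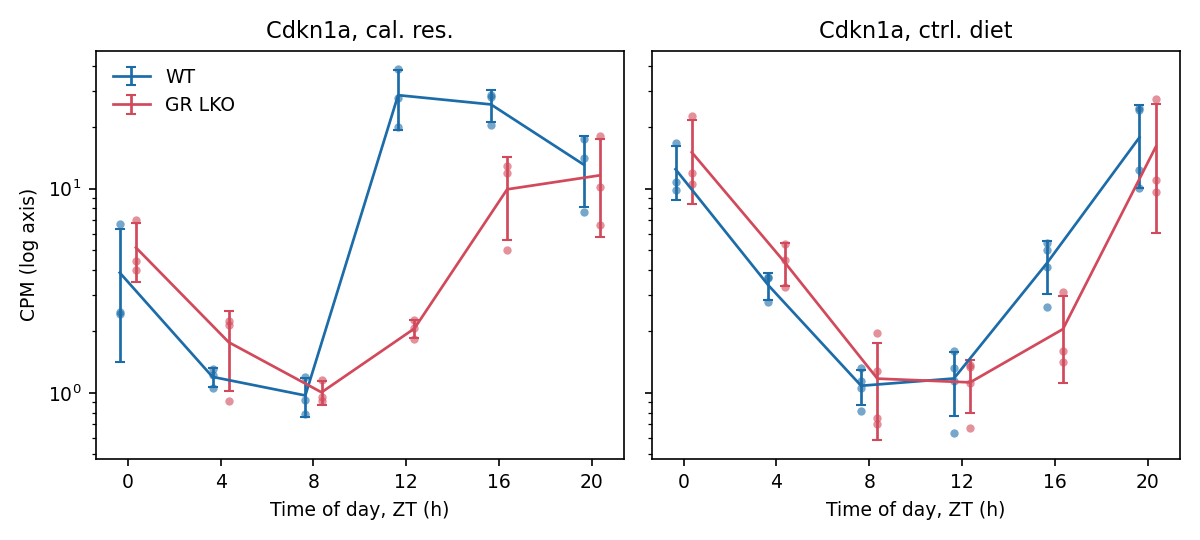
*Cdkn1a* over the 6 time points in WT and GR LKO livers on each diet, on a log axis. Points are mice and lines join the group means.

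By count alone, JTK_CYCLE, a rank test of rhythm over 24 h with an exact null, called 2 of the 10 genes in WT on caloric restriction (27.8% of all genes), 4 in GR LKO on caloric restriction (25.6%), 2 in WT on control diet (32.2%) and 7 in GR LKO on control diet (28.2%). Adjusted over the genes past the count filter only, it called 2 (45.6% of those genes), 4 (43%), 3 (51.8%) and 7 (46.3%) in the same order. An edgeR F test for any difference among the 5 time points other than ZT12, which is not a test of a 24 h rhythm, called 4 (49.2% of all genes), 6 (51.3%), 3 (38.6%) and 7 (33.2%) in the same order. Differences in rhythm between genotypes were not tested.

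Between genotypes under restriction edgeR called 0 of the 10 genes at ZT0 (0.502% of all genes were called), ZT4 (0.69%), ZT8 (2.55%), ZT16 (4.54%) and ZT20 (1.47%). Unadjusted p-values under 0.05 numbered 3, 2, 4, 4 and 2 in that order, beside 13.2%, 14.6%, 17.3%, 19.2% and 19.4% of all genes. DESeq2, whose shares are of the genes it gave an adjusted p, called 0, 1, 1, 2 and 2 beside 3.03%, 3.51%, 5.36%, 7.16% and 5.43%. On control diet edgeR called 0 at ZT0 (0.536%), where *Gadd45b* was below the filter and 9 were tested, 0 at ZT4 (0.195%), 0 at ZT8 (1.43%), 2 at ZT16 (1.98%) and 1 at ZT20 (0.42%). There 1, 1, 2, 6 and 3 passed unadjusted, beside 15.3%, 9.75%, 11.2%, 16.6% and 11.3% of all genes, and DESeq2 called 0, 0, 0, 4 and 3 beside 3.1%, 1.51%, 2.83%, 5% and 2.11%. The interaction of genotype and diet was called by edgeR for 0 of the 10 at ZT0 (0%), ZT4 (0%), ZT8 (0.081%), ZT16 (0.234%) and ZT20 (0%), with 1, 1, 2, 3 and 1 unadjusted beside 10.2%, 6.03%, 8.45%, 10.5% and 6.97% of all genes. DESeq2 called 0, 1, 0, 2 and 1 of the interactions beside 8.53%, 0.271%, 1.1%, 1.48% and 0.341%. For the interaction at ZT0 only 2064 genes had a DESeq2 adjusted p, and whether the 10 were among them is not given. With corticosterone edgeR called 4 of the 10 (8.11% of all genes) and DESeq2 4 (10.9%), with 6 unadjusted beside 26%. *Gadd45b* is among the 4 of each tool, and it passed the edgeR count filter only through the treated group. These counts rest on the values that chose the genes, and the levels below are given without a test.

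*Cdkn1a* at ZT16 under restriction was lower in all 3 GR LKO livers than in all 3 WT livers (log2 fold change -1.37, SE 0.33). The lowest GR LKO liver there was replicate 3, at 4.99 CPM. At ZT0, ZT4, ZT8 and ZT20 under restriction and at every time point on control diet the genotypes overlapped.

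Among the GADD45 genes, *Gadd45b* separated the genotypes under restriction at further times. At ZT4 it was 4.74, 3.80 and 3.06 CPM in WT against 1.46, 2.15 and 0.811 CPM in GR LKO, all WT above all GR LKO (log2 fold change -1.40, SE 0.37). At ZT8 it was barely separate, at 0.872 to 3.58 CPM in WT against 0.716 to 0.844 CPM in GR LKO (log2 fold change -1.37, SE 0.51). At ZT16 it was 3.20, 1.94 and 2.36 CPM in WT against 1.39, 0.947 and 0.379 CPM in GR LKO, again separate. The GR LKO livers held 24, 16 and 6 counts of it there, the last under the minimum count of 10, so no fold is given at ZT16. On control diet at ZT4 the order was turned, with 0.682, 0.63 and 0.408 CPM in WT against 1.35, 1.19 and 1.05 CPM in GR LKO. *Gadd45b* counts are few at these levels, on control diet at ZT4 no more than 9 in a WT liver, so no fold is given there. Endothelial sums at ZT4 under restriction were separate, at 133 to 151 CPM in WT and 172 to 197 CPM in GR LKO. On control diet at ZT4 hepatocyte sums were 84121 to 85572 CPM in WT and 63582 to 69694 CPM in GR LKO. Cholangiocyte sums there were 7.19 to 10.4 CPM in WT and 4.02 to 6.31 CPM in GR LKO. The part of these markers in the *Gadd45b* values was not tested.

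*Gadd45g* at ZT16 on control diet was 3.0, 2.90, 7.96 and 3.18 CPM in WT against 20.7, 24.6 and 11.8 CPM in GR LKO, a log2 fold change of 2.17 (SE 0.40). All 3 GR LKO livers were above all 4 WT livers, among which replicate 3 was the highest. At ZT20 it was 3.66, 4.87, 4.94 and 7.85 CPM in WT against 49.2, 13.7 and 21.3 CPM in GR LKO, again separate (log2 fold change 2.41, SE 0.45). On control diet all GR LKO livers were thus above WT at ZT16 and ZT20, whereas at ZT12 3 of 4 WT livers were above all GR LKO livers. Under restriction at ZT16 the group means were 7.12 CPM in WT against 6.35 CPM in GR LKO, and the interaction was -2.33 (SE 0.62).

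*Gadd45a* was higher in GR LKO livers at some times. At ZT8 under restriction it was 4.79, 1.96 and 3.85 CPM in WT against 8.45, 7.33 and 6.78 CPM in GR LKO (log2 fold change 1.10, SE 0.30), and at ZT16 on control diet 5.38, 3.47, 4.50 and 3.32 CPM in WT against 11.3, 6.48 and 7.18 CPM in GR LKO (log2 fold change 1.00, SE 0.25). The GR LKO livers lay above every WT liver in each of these comparisons. In the ZT8 livers under restriction, hepatocyte sums were 102968 to 124915 CPM in WT and 95910 to 101485 CPM in GR LKO. Endothelial sums there were 135 to 141 CPM in WT and 161 to 176 CPM in GR LKO. Of the markers, edgeR called 1 hepatocyte gene lower and 1 erythrocyte gene higher, and their part was not tested. *Gadd45a* was also separate at ZT0 under restriction, with means of 1.60 CPM in WT against 2.76 CPM in GR LKO (log2 fold change 0.79, SE 0.21). On control diet at ZT0 it overlapped (-0.35, SE 0.30), and the interaction there was 1.14 (SE 0.35). Hepatocyte sums were lower and lymphocyte and neutrophil sums higher in every restricted GR LKO liver at ZT0, and their part was not tested. Over the day the means of *Gadd45a* under restriction ran from 1.14 CPM in WT at ZT12 to 7.52 CPM in GR LKO at ZT8.

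Of the antiproliferative pair, *Btg2* at ZT16 on control diet was 7.22, 10.4, 9.53 and 10.2 CPM in WT against 18.4, 18.0 and 14.3 CPM in GR LKO (log2 fold change 0.85, SE 0.15). All 3 GR LKO livers were above all 4 WT livers. At ZT20 it was 9.67, 6.62, 6.40 and 11.3 CPM in WT against 64.1, 23.6 and 22.4 CPM in GR LKO, separate but widely spread (log2 fold change 2.13, SE 0.41). Replicate 1 of this GR LKO group is the library that stood apart, and without it the log2 fold change at ZT20 was 1.44 for *Btg2* and 1.72 for *Gadd45g*. Under restriction *Btg2* was also separate at ZT0, with means of 6.33 CPM in WT against 12.3 CPM in GR LKO (log2 fold change 0.97, SE 0.34). At ZT20 under restriction its means were 5.72 CPM in WT against 13.1 CPM in GR LKO, again separate (log2 fold change 1.21, SE 0.42). It overlapped at ZT4, ZT8, ZT12 and ZT16 under restriction. *Btg1* at ZT16 under restriction was 39.5, 41.8 and 37.7 CPM in WT against 63.7, 47.3 and 60.1 CPM in GR LKO, all GR LKO above all WT (log2 fold change 0.53, SE 0.12). On control diet at ZT16 the *Btg1* means ran the other way, at 39.5 CPM in WT against 25.2 CPM in GR LKO, with overlap (log2 fold change -0.65, SE 0.21). Its interaction at ZT16 was 1.2 (SE 0.27).

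*Myc* differed widely by genotype on control diet in the dark phase. At ZT20 it was 3.17, 2.47, 2.62 and 3.72 CPM in WT against 31.4, 22.1 and 20.6 CPM in GR LKO (log2 fold change 3.05, SE 0.21). Every GR LKO liver was above every WT liver, and without GR LKO replicate 1 the log2 fold change was 2.84. At ZT16 it was 2.63, 2.44, 10.3 and 2.38 CPM in WT against 24.3, 27.5 and 19.97 CPM in GR LKO (log2 fold change 2.44, SE 0.50). WT replicate 3 was the highest WT liver, and without it the log2 fold change at ZT16 was 3.26. At ZT0 it was 3.91, 3.85 and 7.55 CPM in WT against 10.2, 10.2 and 8.99 CPM in GR LKO (log2 fold change 0.92, SE 0.28). At ZT12 the genotypes overlapped on control diet, with 2.26, 48.0, 47.8 and 32.2 CPM in WT against 3.53, 7.07, 28.9 and 25.6 CPM in GR LKO, so that WT livers were mostly high at ZT12 and mostly low in the dark phase, and GR LKO livers were high in the dark phase.

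Under restriction *Myc* stayed low in both genotypes, with group means from 1.86 CPM in GR LKO at ZT4 to 6.15 CPM in GR LKO at ZT8. It was separate between genotypes at ZT8, higher in GR LKO (log2 fold change 0.91, SE 0.33), and at ZT12, lower in GR LKO (-0.39, SE 0.26). Its interaction at ZT20 was -2.49 on the log2 scale (SE 0.47). In the diet experiment it was 3.94, 3.92 and 4.62 CPM under restriction against 21.6, 38.5 and 3.32 CPM on control diet, with control replicate 3 below the restricted range. The same control replicate was the lowest in *Gadd45g*, as was replicate 1 of control WT at ZT12 in both genes. *Ccnd1* at ZT20 under restriction was 8.75, 14 and 13.1 CPM in WT against 43.1, 19.6 and 17.1 CPM in GR LKO, separate (log2 fold change 1.17, SE 0.38). Its means under restriction ran from 8.35 CPM in WT at ZT12 to 58.8 CPM in WT at ZT4, the widest range of the gene.

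**Figure D2:**
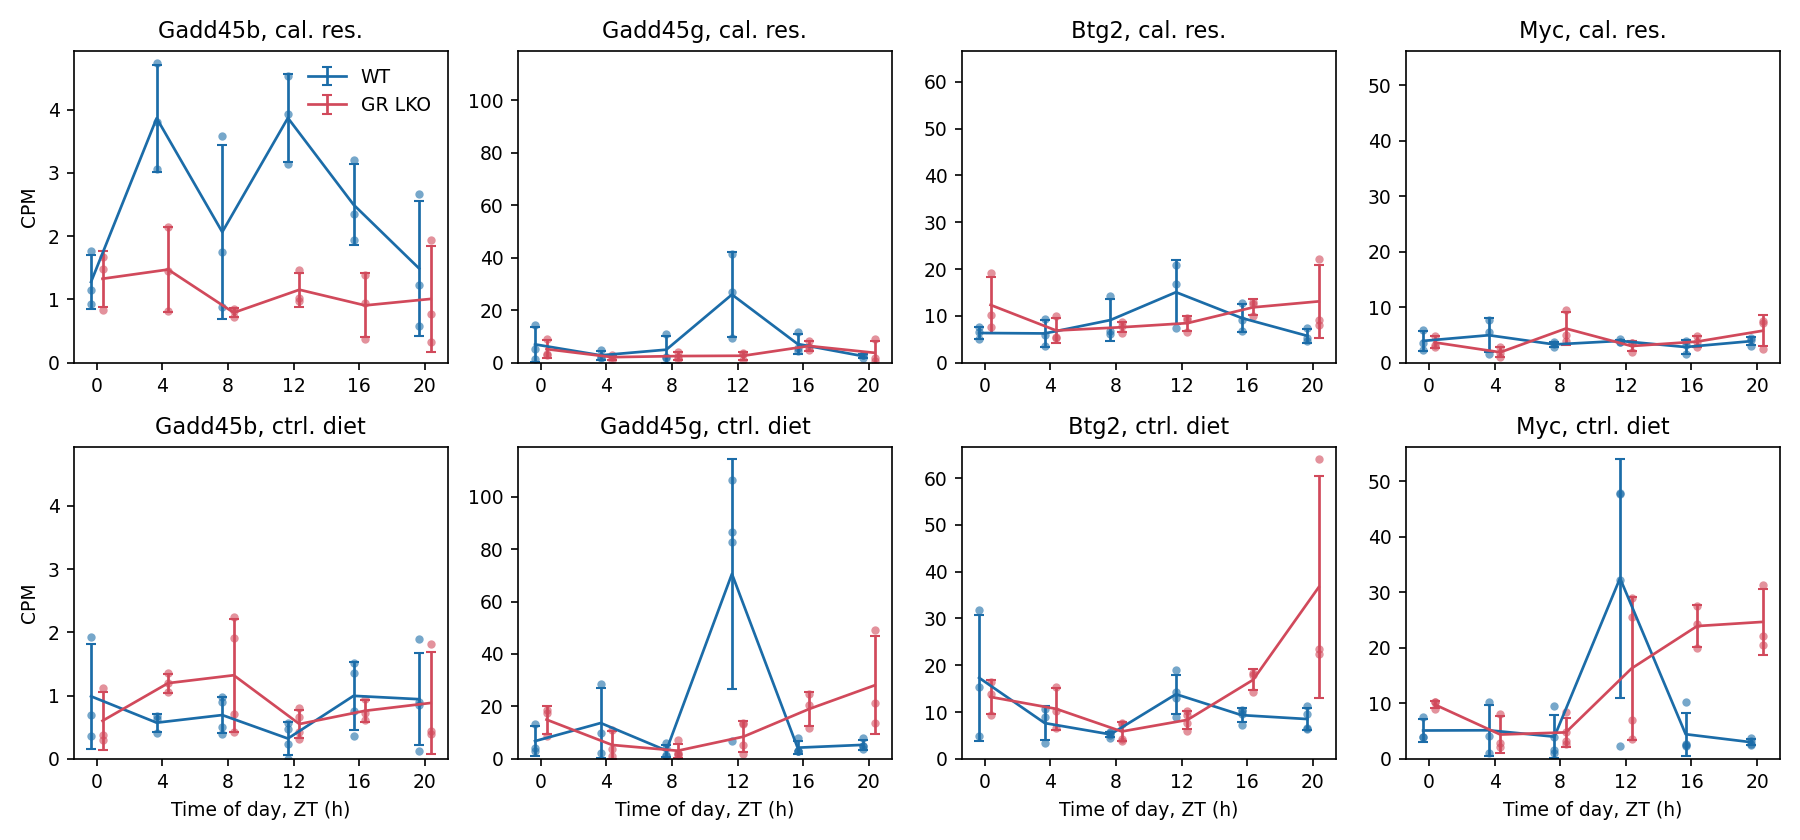
*Gadd45b*, *Gadd45g*, *Btg2* and *Myc* over the 6 time points in WT (blue) and GR LKO (red) livers, with caloric restriction in the top panels and control diet in the bottom panels. Points are mice, lines join means and bars are the SD.

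*Trp53* and *Mdm2* varied least over the day, by the ratio of the highest to the lowest group mean. *Trp53* group means under restriction lay between 13.4 CPM (GR LKO, ZT12) and 23.6 CPM (GR LKO, ZT0), and on control diet between 16 CPM (GR LKO, ZT16) and 21.9 CPM (GR LKO, ZT4). *Mdm2* group means lay between 23.2 CPM (GR LKO, ZT8) and 35.7 CPM (GR LKO, ZT20) under restriction, and between 28.8 CPM (GR LKO, ZT0) and 33.2 CPM (WT, ZT8) on control diet. Levels of the p53 transcript and of its regulator were thus far flatter than those of *Cdkn1a*. At ZT16 under restriction *Mdm2* was 31.5, 33.7 and 36.4 CPM in WT against 28.7, 27.0 and 28.5 CPM in GR LKO, separate (log2 fold change -0.26, SE 0.08).

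In WT livers at ZT12, *Gadd45b*, *Gadd45g*, *Cdkn1a* and *Btg2* were higher in every liver given corticosterone than in every control. How many of all genes separated these groups is not given here. *Gadd45b* was 8.48, 7.84 and 8.99 CPM with corticosterone and 0.359, 0.373 and 0.550 CPM in controls. The controls held 5, 6 and 8 counts of it, under the minimum count of 10, so it passed the filter through the treated group and no fold is given. *Gadd45g* was 152, 155 and 138 CPM with corticosterone and 16.4, 19.97 and 2.20 CPM in controls (log2 fold change 3.52, SE 0.62). *Cdkn1a* was 19.8, 52.3 and 20.3 CPM with corticosterone and 4.67, 3.55 and 2.82 CPM in controls (log2 fold change 3.07, SE 0.44), and without corticosterone replicate 2, the highest, its log2 fold change was 2.45. *Btg2* was 18.0, 27.3 and 16.7 CPM with corticosterone and 12.0, 7.22 and 8.31 CPM in controls (log2 fold change 1.17, SE 0.26).

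Of the other 6 genes, *Btg1* overlapped, with 21.4, 45.4 and 14.1 CPM with corticosterone and 28.7, 33.4 and 34.9 CPM in controls. *Myc* was 3.26, 10.4 and 1.77 CPM with corticosterone and 13.7, 28.1 and 3.78 CPM in controls, also overlapping. Control replicate 3 was the lowest control in both *Myc* and *Gadd45g*. *Mdm2* and *Trp53* were separate between the groups, with log2 fold changes of 0.34 and -0.33 (SE 0.12 and 0.12). *Gadd45a* and *Ccnd1* overlapped, with log2 fold changes of -0.81 and -0.33. Set beside the ZT12 diet values, *Cdkn1a*, *Gadd45b* and *Btg2* were higher with corticosterone and with restriction alike, whereas *Btg1*, higher with restriction, overlapped between treated and control livers. The difference between these contrasts was not tested.

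Markers differed with corticosterone too. The hepatocyte list summed to 92465, 92850 and 83861 CPM with corticosterone and 91869, 86637 and 91190 CPM in controls, with *Hnf4a* and *Tat* called higher of 5 genes. The Kupffer and myeloid list summed to 61.5, 95.2 and 75.9 CPM with corticosterone and 50.3, 62.5 and 69.9 CPM in controls, with *Marco* called higher of 6. The erythrocyte list summed to 241, 384 and 218 CPM and 493, 443 and 554 CPM in the same order, led by *Hbb-bs*. Erythrocyte sums were thus lower in every treated liver, and the neutrophil list summed to 2.27, 1.99 and 1.57 CPM with corticosterone and 0.0718, 0.622 and 0.618 CPM in controls. Called lower were *Kdr* of 4 endothelial genes, *Lrat* of 5 stellate genes and *Sox9* of 3 cholangiocyte genes tested. Endothelial sums were lower in every treated liver, at 63.7, 68.7 and 74.1 CPM with corticosterone and 79.3, 84.7 and 105 CPM in controls, while stellate and cholangiocyte sums overlapped. The part of these markers in the values of the 10 genes was not tested.

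On control diet at ZT16, where *Gadd45g* and *Btg2* were separate between genotypes, the marker called was *Alas2* of 3 erythrocyte genes (higher in GR LKO), and the sums of its list overlapped. Lists that were separate were all lower in GR LKO. Hepatocyte sums were 83217, 86675, 81512 and 77578 CPM in WT against 75563, 63442 and 74671 CPM, endothelial sums 89.5, 93.7, 86.5 and 93.7 CPM against 82.4, 70.1 and 84.6 CPM, and cholangiocyte sums 8.26, 11.4, 7.58 and 8.16 CPM against 6.80, 7.04 and 5.76 CPM. Their part in those values was not tested. At ZT20 on control diet, where *Myc* was separate, the sums of every list overlapped between genotypes.

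**Figure D3:**
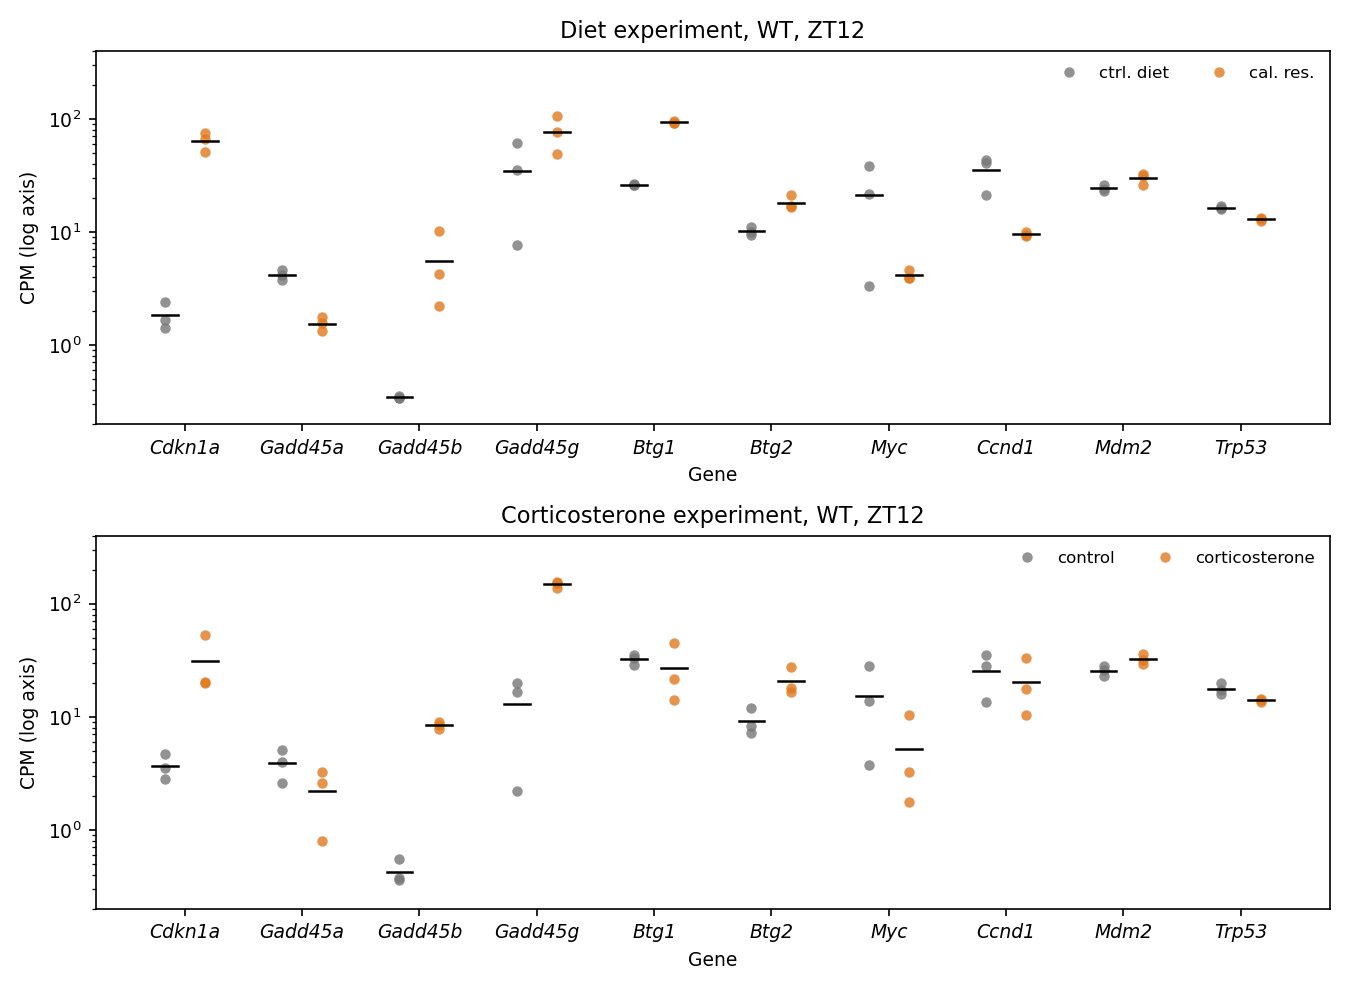
The 10 genes at ZT12 in the diet experiment and in the corticosterone experiment, on a log axis. Points are mice and black lines are means.

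Related genes were taken from 4 lists that exclude the 10: p53 pathway genes, cell cycle brakes, G1 and MYC network genes, and GADD45 partners. These lists were chosen with earlier results of these data known. Their counts, adjusted p-values and named genes are therefore a description and not independent evidence. Under restriction at ZT12, where 15.3% of all genes were called by genotype, edgeR called 4 of 25 p53 pathway genes, all lower in GR LKO (median log2 fold change -0.17). It called 3 of 15 brakes (1 higher, 2 lower, median -0.09), 2 of 17 G1 and MYC network genes (1 higher, 1 lower, median 0.07) and 2 of 8 GADD45 partners, both lower (median -0.35). The median over all genes tested was 0.00. The count of brakes was 5 without WT replicate 1 and 1 without WT replicate 2, WT replicate 3 or GR LKO replicate 3, and that of G1 and MYC network genes was 1 without each of the same 3 libraries. In total 11 of 65 genes of the 4 lists were called, close to the share over all genes.

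The largest of these differences was *Ddit4*, whose product REDD1 restrains mTORC1, with means of 59.4 CPM in WT against 7.98 CPM in GR LKO (log2 fold change -2.90, edgeR adjusted p = 0.00291). *Trp53inp1*, which encodes a p53-induced nuclear protein, had means of 175 CPM in WT against 71.9 CPM in GR LKO (log2 fold change -1.29, edgeR adjusted p = 0.00248). *Tob2*, an antiproliferative relative of the BTG genes, had means of 84.6 CPM in WT against 32.8 CPM in GR LKO (log2 fold change -1.37, edgeR adjusted p = 0.000832). In each of the 3 genes all WT livers were above all GR LKO livers. *Cdk6*, a partner kinase of cyclin D, was higher in GR LKO, with means of 20.5 CPM in WT against 36.2 CPM (log2 fold change 0.82, edgeR adjusted p = 0.00933). *Aen*, *Rb1*, *Map2k6*, *Mapk14* and *Mlx* were lower and *Wee1*, a kinase that inhibits CDK1, was higher, with log2 fold changes of -0.59, -0.65, -1.3, -0.47, -0.41 and 0.61.

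*Ddit4*, *Trp53inp1* and *Tob2* were also called by diet and with corticosterone. In the diet experiment, where 47.1% of all genes were called, edgeR called 12 of 27 p53 pathway genes (9 higher and 3 lower on caloric restriction, median log2 fold change 0.09), 9 of 15 brakes (7 higher, 2 lower, median 0.23), 10 of 19 G1 and MYC network genes (7 higher, 3 lower, median 0.13) and 4 of 8 GADD45 partners (2 higher, 2 lower, median -0.15). The total of 35 of 69 is close to the share over all genes, and the partners' count was 2 without control replicate 2. *Ddit4* rose from a mean of 2.72 to 138 CPM with restriction (log2 fold change 5.66, edgeR adjusted p = 9.98e-06), *Trp53inp1* from 42.1 to 218 CPM (2.37, adjusted p = 9.4e-05) and *Tob2* from 44.4 to 91.9 CPM (1.05, adjusted p = 0.00405). *Cdk6* fell from 36.5 to 13.9 CPM (log2 fold change -1.40, edgeR adjusted p = 0.000597), while *Mycl*, a MYC family gene, and *Cdc25a*, a phosphatase that activates CDKs, rose (log2 fold changes 1.74 and 0.88, edgeR adjusted p = 0.00053 and 0.0117). *Cdkn1c*, which encodes the CDK inhibitor p57, *Btg3* and *Ei24* rose by 1.48, 1.3 and 2.29 on the log2 scale, and of the GADD45 partners *Pcna* and *Mapk14* rose (0.66 and 0.36) and *Map2k3* fell (-0.87).

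With corticosterone, where 8.11% of all genes were called, edgeR called 5 of 25 p53 pathway genes (3 higher, 2 lower, median 0.09) and 2 of 15 brakes (1 higher, 1 lower). It called 0 of 20 G1 and MYC network genes (7 unadjusted, 1 by DESeq2) and 0 of 8 partners (2 unadjusted, 2 by DESeq2), where 26% of all genes passed unadjusted, so that the total of 7 of 68 is close to the share over all genes. *Ddit4*, *Trp53inp1* and *Tob2* rose again, from means of 12.5 to 142, 38.3 to 226 and 30.8 to 93.4 CPM (edgeR adjusted p = 0.00223, 0.00711 and 0.00438), and *Gas1* and *Plk2* fell (log2 fold changes -1.34 and -1.62). The p53 count was 3 without control replicate 2 or corticosterone replicate 1, and 1 G1 gene was called without corticosterone replicate 2.

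On control diet at ZT12, where 2.08% of all genes were called by genotype, edgeR called 0 of 24 p53 pathway genes (3 unadjusted, 2 by DESeq2), 0 of 14 brakes (2 unadjusted, 2 by DESeq2) and 0 of 18 G1 and MYC network genes (3 unadjusted, 2 by DESeq2), where 12.6% of all genes passed unadjusted and DESeq2 called 4.25%. It called 1 of 8 partners, *Map2k6*, lower in GR LKO (log2 fold change -0.91, edgeR adjusted p = 0.04), and that call was lost without any library but WT replicate 4. Without WT replicate 3, 2 p53 pathway genes were called, and without WT replicate 4, 1 G1 gene. At ZT16 the lists held 3 called genes, named here after their values were seen, under restriction: *Ddit4* and *Ei24* lower in GR LKO (log2 fold changes -1.29 and -1.29, edgeR adjusted p = 0.0195 and 0.029) and *Gas1* higher (0.94, adjusted p = 0.0154), of 62 tested, close to the 4.54% over all genes. That count was 0 without either of GR LKO replicates 1 and 3, and 1 without GR LKO replicate 2. *Ddit4* was thus lower in GR LKO at both ZT12 and ZT16 under restriction. In those ZT16 livers hepatocyte sums were 125305, 132989 and 123625 CPM in WT against 115816, 91791 and 119169 CPM in GR LKO, stellate and cholangiocyte sums were also lower and lymphocyte and neutrophil sums higher in every GR LKO liver, and their part was not tested. On control diet at ZT16, where 1.98% of all genes were called, 1 of 69 was called, *Mnt*, a partner of MAX that opposes MYC (log2 fold change -0.89, edgeR adjusted p = 0.0211), 2 without WT replicate 3 and 0 without either of GR LKO replicates 2 and 3. At the other time points edgeR called 0 genes of the lists, with unadjusted p-values under 0.05 for 2, 10, 13 and 17 genes of 64, 64, 65 and 66 at ZT0, ZT4, ZT8 and ZT20 under restriction, beside 13.2%, 14.6%, 17.3% and 19.4% of all genes (DESeq2 called 0, 1, 5 and 5), and for 13, 7, 2 and 7 of 65, 62, 64 and 66 on control diet, beside 15.3%, 9.75%, 11.2% and 11.3% (DESeq2 called 0, 0, 0 and 1). At ZT8 under restriction 1 was called without WT replicate 2, 2 without WT replicate 3 and 1 without GR LKO replicate 3.

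The genes whose 12 group means under restriction were most like those of *Cdkn1a* were *Skil*, *Ice1*, *Pafah1b1*, *R3hcc1l*, *Fgf1*, *Tug1*, *Ppp1r3b* and *mt-Cytb*, of 11432 genes compared. Pearson's r over the 12 groups was 0.96 for *Skil* and 0.93 for *mt-Cytb*, and over the 12 groups on control diet it was 0.79 and 0.51. *Fgf1* and *Ppp1r3b*, which encodes a glycogen-targeting subunit of a phosphatase, had r of 0.94 and 0.93 under restriction, and on control diet 0.41 and 0.76. Without the ZT12 groups 0 of the 8 stayed among the 8 most like, and by rank 2 did. Of the other 9 genes described here, *Mdm2* was most like *Cdkn1a* under restriction (r = 0.78, and -0.19 on control diet), and *Gadd45a* the least (-0.61 and -0.78). Both genes of each r were measured in the same libraries, and no test was made.

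RefSeq promoter sequences (build GRCm38.p6, 250 bases before to 50 bases after the start) matched 8 of the 10 genes, in 9 entries, 2 of them for *Cdkn1a*, and *Myc* and *Ccnd1* had no entry. The motif AGAACA of the glucocorticoid response element, its palindrome (AGAACA and TGTTCT with 3 bases between), the FOXO site GTAAACA, the E-box CACGTG, the cAMP response element TGACGTCA and the p53 decamer motif were searched on both strands. The palindrome contains AGAACA. Of 32851 promoters of this length, 19% hold AGAACA, 0.00913% the palindrome, 3.65% GTAAACA, 7.15% CACGTG, 1.79% TGACGTCA and 8.36% a p53 decamer. Neither AGAACA nor the palindrome was in any of the 9 windows. A p53 decamer was in the windows of *Gadd45a*, *Mdm2* and *Trp53* and 2 were in the first of *Cdkn1a*, GTAAACA was in those of *Btg1* and *Mdm2*, CACGTG in those of *Gadd45b*, *Gadd45g* and *Trp53*, and TGACGTCA in that of *Btg2*. The windows of 4 genes that were higher in every liver given corticosterone are shown, with matches in capitals: *Cdkn1a* at chr17:29090729-29091028 on the plus strand, *Gadd45b* at chr10:80929841-80930140 on the plus strand, *Gadd45g* at chr13:51846425-51846724 on the plus strand and *Btg2* at chr1:134079106-134079405 on the minus strand. The other *Cdkn1a* window, at chr17:29093519-29093818 on the plus strand, held no match. A match describes letters in the window only.
Cdkn1a: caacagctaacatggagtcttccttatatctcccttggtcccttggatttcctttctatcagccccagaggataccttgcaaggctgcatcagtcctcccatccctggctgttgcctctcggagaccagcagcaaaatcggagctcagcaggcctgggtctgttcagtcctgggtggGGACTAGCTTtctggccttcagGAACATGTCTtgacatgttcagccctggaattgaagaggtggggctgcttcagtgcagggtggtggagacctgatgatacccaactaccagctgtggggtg
Gadd45b: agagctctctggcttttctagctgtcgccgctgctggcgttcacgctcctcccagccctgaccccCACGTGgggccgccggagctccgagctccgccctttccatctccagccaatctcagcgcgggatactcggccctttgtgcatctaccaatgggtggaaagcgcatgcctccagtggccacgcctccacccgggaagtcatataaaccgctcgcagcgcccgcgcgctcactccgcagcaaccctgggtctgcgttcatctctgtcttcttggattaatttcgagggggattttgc
Gadd45g: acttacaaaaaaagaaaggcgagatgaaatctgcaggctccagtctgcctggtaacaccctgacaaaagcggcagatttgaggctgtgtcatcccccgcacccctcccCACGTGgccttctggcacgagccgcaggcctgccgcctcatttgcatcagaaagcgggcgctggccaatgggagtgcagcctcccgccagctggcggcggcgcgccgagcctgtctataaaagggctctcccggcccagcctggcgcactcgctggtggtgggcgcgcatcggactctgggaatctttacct
Btg2: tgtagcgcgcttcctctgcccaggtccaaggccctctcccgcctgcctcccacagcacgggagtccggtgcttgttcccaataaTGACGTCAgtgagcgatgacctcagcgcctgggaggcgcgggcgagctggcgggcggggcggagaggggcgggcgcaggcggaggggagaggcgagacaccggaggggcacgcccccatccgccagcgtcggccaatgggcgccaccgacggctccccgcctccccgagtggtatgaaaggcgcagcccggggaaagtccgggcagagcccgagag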

How the data were processed

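Bulk liver RNA was measured in 90 mice. The authors quantified the reads with Salmon and deposited estimated counts per gene, not normalized. A deposited table of VST values (6 columns) was not used. Of the 27654 genes, 27244 matched a symbol by Ensembl ID, and 410, with 0.107% of the counts, kept their ID. Counts were rounded and read in R 4.3.3. For each of 14 comparisons, edgeR 4.0.16 made a quasi-likelihood fit to the libraries of the 2 groups, after TMM scaling and filterByExpr (minimum count 10), with Benjamini-Hochberg adjustment over all genes tested. The interaction was fitted over the 4 groups of a time point. JTK_CYCLE (period 24 h, 6 phases) was written in R, run on VST values and tested on simulated data with the other scripted statistics. DESeq2 1.42.0, RLE scaling, no filter, a replicate block, an edgeR F test over time, Spearman correlation, a single fit over each table and leaving out each library were the alternatives. All 10 genes were named. Of each related list and ZT12 comparison, up to 3 called genes with the largest log2 fold change, no overlap between mice and a mean of at least 1 CPM in a group could be named, and the 8 genes with the highest r with *Cdkn1a*. The members and lists were chosen with earlier results of these data known. No pair of libraries within a group was identical (102 pairs, where chi-square per degree of freedom was at least 10.4 with a median of 22.5). Counts per library ran from 14235473 to 20788575 (caloric restriction series), 10057544 to 17089004 (control series), 36442195 to 39492146 (diet experiment) and 13739631 to 16077943 (corticosterone experiment).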

Additional observations from a re-analysis of the deposited data

Results flagged for a closer look

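Each of the 10 genes was checked with Dixon's rule in the groups of 4 livers, 60 sets of values in all, and in 4 of them a liver lay far from the others of its group. Chance would pick out about 1 in 20. On control diet *Gadd45g* was 1.41, 1.73, 2.12 and 7.11 CPM in GR LKO livers at ZT8, where replicate 4 stood apart. *Gadd45g* at 7.96 CPM and *Myc* at 10.3 CPM stood apart in the same liver, replicate 3 of WT at ZT16. *Ccnd1* at 32.2 CPM stood apart in replicate 4 of WT at ZT20.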

How the results depend on the processing

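Scaling with RLE in place of TMM moved no count of calls by over 1.5 times, and none of the 10 genes that was called turned direction under any alternative. Counts of the 10 genes are a description only. Percentages below are the shares called among all genes under the same setting. DESeq2 called more in several comparisons, of the 10 genes and of the 4 related lists together. Under restriction these were 1 and 1 at ZT4 (3.51%), 1 and 5 at ZT8 (5.36%), 2 and 5 at ZT16 (7.16%) and 2 and 5 at ZT20 (5.43%). On control diet they were 4 and 5 at ZT16 (5%) and 3 and 1 at ZT20 (2.11%), with 7 of the lists at ZT12 (4.25%). For the interaction DESeq2 called 1 of the 10 genes at ZT4 (0.271%), 2 at ZT16 (1.48%) and 1 at ZT20 (0.341%). With no filter on low counts, 2 of the 10 genes were called at ZT16 under restriction (3.18%), and of the lists 1 gene at ZT8 under restriction (1.87%) and 2 at ZT16 on control diet (1.31%).

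A single fit over each table called 2 of the 10 genes at ZT16 under restriction (7.86%), 0 at ZT16 on control diet (3.65%) and 2 at ZT20 on control diet (3.02%). Of the lists it called 2, 6, 7 and 11 genes at ZT4 (2.75%), ZT8 (5.55%), ZT16 and ZT20 (8.64%) under restriction, and 2, 5, 2 and 2 at ZT0 (4.91%), ZT12 (4.18%), ZT16 and ZT20 on control diet.

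With the replicate block, 1 of the 10 genes was called at ZT16 under restriction (2.41%) and 0 at ZT16 on control diet (0.273%), and of the lists 1 gene at ZT16 and 1 at ZT20 (0.629%) under restriction and 0 at ZT12 (0.884%) and 0 at ZT16 on control diet, with 1 G1 and MYC network gene at ZT12 under restriction (7.56%). With corticosterone (4.63%) the block called 4 of the 10 genes, as many as without it, though not all the same. Same-numbered livers did not deviate together (r from -0.122 to 0.115 over 44 pairs, with 0 of 14 comparisons in which all pairs passed 0.1), so the numbers were not taken as pairs.

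Leaving out 1 library at a time, the share called among all genes ranged from 1.93% to 2.86% at ZT16 under restriction, 0.025% to 0.679% at ZT0 and 0.701% to 1.58% at ZT16 on control diet, 1.76% to 8.59% with corticosterone, 0.144% to 0.397% for the interaction at ZT16 and 29.8% to 32.3% for rhythm in WT on control diet. Beside these shares the calls among the 10 genes ranged from 0 to 1, 0 to 1, 0 to 2, 1 to 4, 0 to 2 and 1 to 3 in that order. Those of the lists ranged from 0 to 2 at ZT8 (share 0.458% to 2.58%) and 0 to 3 at ZT16 under restriction, and 0 to 2 at ZT12 (share 1.2% to 1.71%) and 0 to 2 at ZT16 on control diet. An edgeR F test over 6 time points, a description only, called 9 of the 10 genes in WT (64.3%) and 7 in GR LKO (60.5%) under restriction and 5 in WT on control diet (50%). Without ZT12 it called 4 in restricted WT (49.2%). Of the 8 genes most like *Cdkn1a*, 2 were kept by Spearman correlation and 0 without the ZT12 groups. The cause of these shifts was not tested. *Gadd45b* was below the filter on control diet at ZT0 and ZT12, and no limit of detection was estimated for any gene.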
